A study of Homo sapiens with 4 samples.

Results

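Neuropeptide precursor and dense-core granule genes were examined in enteric ganglioids, free-floating clusters of enteric neurons and their progenitors grown from the human embryonic stem cell line H9. The members were 34 genes taken by symbol from the 36601 features of the count matrices, and all 34 were found there. They comprised 24 neuropeptide precursors (VIP, ADCYAP1, NPY, TAC1, TAC3, SST, GAL, CALCA, CALCB, PENK, PDYN, POMC, CARTPT, NMU, NMB, GRP, CCK, CRH, UCN, NTS, TRH, GNRH1, PNOC and NPPC), 6 granins and related cargo proteins (SCG2, SCG3, SCG5, VGF, CHGA and CHGB) and 4 processing enzymes (PCSK1, PCSK2, CPE and PAM). Single nuclei of 4 samples were sequenced, 2 control and 2 PP121 samples, each pair from differentiation replicates 1 and 2. All 4 came from H9 at ganglioid stage 1 in suspension. The PP121 samples had received 2 µM PP121, an inhibitor of several kinases including receptor tyrosine kinases, from day 15 to day 20, and the controls had not. In the deposited annotation replicate 1 of both treatments was dated day 42 and replicate 2 day 38, so the day and the differentiation cannot be told apart. The ganglioids were made from a single stem cell line in culture, and same-numbered samples carried the same differentiation replicate number in the labels.

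Neuropeptides are made as precursors that enter the secretory pathway and are packed, with the granins, into dense-core granules. Inside the granule the convertases PCSK1 and PCSK2 cut the precursors at paired basic residues, carboxypeptidase E (CPE) trims the exposed basic residues and PAM adds the terminal amide that many peptides need to act. In the gut wall, enteric neurons release tachykinins from TAC1 alongside acetylcholine to excite muscle, and VIP and related peptides alongside nitric oxide to relax it. Somatostatin, enkephalins, CGRP, NPY and CART mark other enteric neuron types.

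The annotated nuclei numbered 2912 to 4587 per sample with 23348045 to 34123759 unique molecular identifiers (UMIs, each standing for 1 captured RNA molecule), and 976 to 2301 of them were annotated as enteric neurons, with a median of 7210 to 8102 UMIs per neuron. Levels are in CPM, a gene's UMIs scaled to the same total in every class and sample. The summed level of 14 neuronal markers was 7480 to 10257 CPM in the neurons and 954 to 2017 in the 2 progenitor classes, and none of the 14 was at 0 in the neurons. Summed levels of 13 mesenchymal markers in the neurons were 152 and 164 CPM on day 42 and 200 and 230 CPM on day 38, and the mesenchymal class held 40 and 33 nuclei on day 42 against 408 and 422 on day 38. When all samples were clustered together, 4.53% to 16.0% of the annotated neurons fell outside the neuronal clusters, the most in control replicate 2. Annotated nuclei of any pair of samples shared 0 to 8 barcodes. Each value is a sum over all nuclei of a class in 1 sample, and the 4 values below follow the order control replicate 1, control replicate 2, PP121 replicate 1 and PP121 replicate 2. Counts are not corrected for transcript length, so each gene is compared with itself across samples and classes only.

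The processing enzymes were present in the neurons of every sample. PAM, the amidating enzyme, was at 258, 441, 458 and 564 CPM. CPE was at 167, 182, 179 and 174 CPM. PCSK2, the convertase that acts late in the granule, was at 86.8, 72.6, 75.6 and 76.1 CPM, whereas PCSK1, the convertase that acts early, was at 1.83 to 3.27 CPM. Of the 4 enzymes PAM varied most between samples, with control replicate 1 low and PP121 replicate 2 high, and CPE varied least.

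The granins were detected in the neurons of every sample as well. SCG3, a granin that binds CPE and chromogranin A in the forming granule, was at 52.7, 44.2, 42.1 and 39.98 CPM. SCG5, the chaperone of PCSK2, was at 34.3, 30.4, 22.9 and 18.6 CPM. SCG2, the secretoneurin precursor, was at 17.6, 12.7, 11.0 and 9.37 CPM. Each of these 3 genes was higher in both controls than in both PP121 samples. VGF, a peptide precursor known to be induced by neurotrophins, was at 9.81, 5.59, 7.54 and 2.51 CPM, with both day 42 samples above both day 38 samples. CHGB spanned 9.82 to 18.2 CPM and CHGA 4.11 to 7.86 CPM.

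Among the 24 precursors, NMU alone reached 10 CPM in the neurons of all 4 samples. NMU, the precursor of the muscle-contracting peptide neuromedin U, was at 17.6, 24.98, 16.9 and 24.7 CPM. NPPC, which encodes C-type natriuretic peptide, was at 12.0, 9.38, 9.45 and 6.62 CPM. TAC1, the precursor of substance P and neurokinin A, was at 4.27, 13.4, 13.8 and 34.8 CPM from 81, 149, 233 and 305 UMIs. TAC1 was lowest in the day 42 control and highest in the day 38 PP121 sample, with the other two nearly equal. TAC3, the neurokinin B precursor, was at 7.44, 4.42, 4.75 and 5.03 CPM. Somatostatin (SST) was at 7.02, 1.98, 5.82 and 2.74 CPM. UCN, a corticotropin-releasing hormone relative, was at 5.38, 2.80, 4.22 and 1.14 CPM. SST and UCN were both higher in the day 42 samples. ADCYAP1, the PACAP precursor, was at 2.59, 4.96, 4.16 and 6.40 CPM. CARTPT, the precursor of the CART peptides, was at 3.80, 0.812, 0.772 and 0.457 CPM from 72, 9, 13 and 4 UMIs, so control replicate 1 stood alone.

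The remaining precursors were rare in the neurons. GNRH1 (2.20 to 3.25 CPM), PNOC, the nociceptin precursor (1.49 to 2.97 CPM), CALCB, a CGRP precursor (1.44 to 2.48 CPM), NMB (0.721 to 1.25 CPM), NTS, the neurotensin precursor (0.535 to 1.37 CPM), TRH (0.571 to 1.37 CPM) and POMC (0.356 to 1.58 CPM) were counted in every sample. PENK, the enkephalin precursor, reached at most 0.457 CPM, PDYN, the dynorphin precursor, 0.721 CPM, CCK 0.571 CPM and CALCA 0.271 CPM. For NPY, GAL, GRP and CRH the neurons of a sample together held 2 UMIs or fewer. VIP, the peptide classically found with nitric oxide in inhibitory motor neurons, had no UMI in the neurons of any sample. With every neuron thinned to 2000 UMIs, 0 of 2291, 0 of 1247, 0 of 2024 and 0 of 974 neurons held a VIP UMI, which allows shares of up to 0.131%, 0.241%, 0.148% and 0.308% of neurons with a UMI (3 counts of the total, for counting error only).

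Across the annotated classes, 14 of the 29 members with at least 10 UMIs in all were higher in neurons than in both progenitor classes in all 4 samples (ADCYAP1, TAC1, TAC3, SST, CARTPT, SCG2, SCG3, SCG5, VGF, CHGA, CHGB, PCSK2, CPE and PAM), against 14.1% of the 27455 genes counted the same way. Without doublet candidates CARTPT left this list and PDYN joined it. None of the 29 was below both progenitor classes in all samples, against 10.4% of genes. The classes are clusters of the same nuclei, so these counts carry no test. TAC1, CARTPT, SCG3, VGF, CHGB and PCSK2 were highest in neurons among all classes of every sample. CPE was instead highest in the mesenchymal class of every sample, at 188, 188, 225 and 209 CPM, from 67, 680, 67 and 724 UMIs. In both progenitor classes summed, CPE was at 62.0, 49.9, 66.4 and 38.1 CPM, below the neurons in each sample. PAM in the progenitors was at 172, 239, 249 and 358 CPM.

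**Figure D1:**
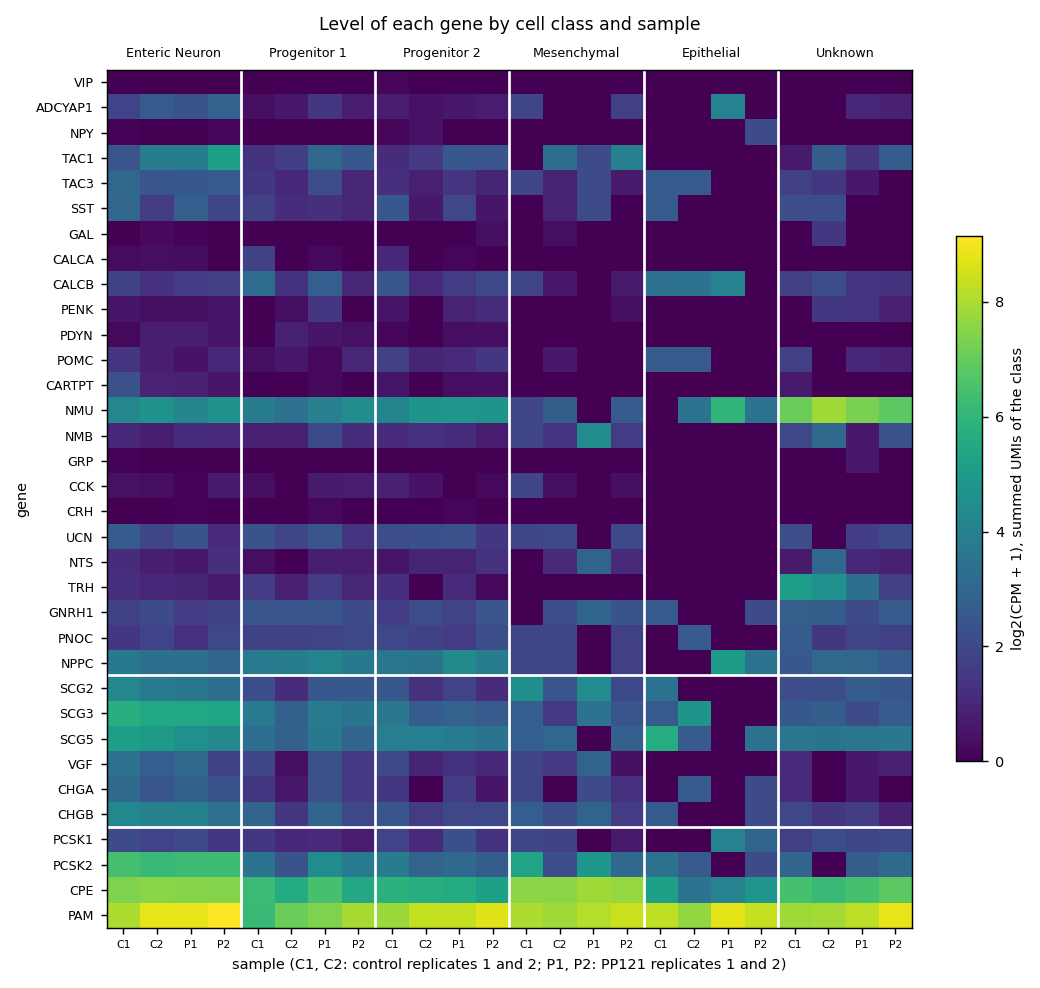
Heat map of the level of each member as log2(CPM + 1), from dark (0) to bright, with genes in rows grouped as precursors, granins and enzymes, and the 4 samples of each annotated class in columns. PAM was bright in every class, NMU was brightest in the Unknown nuclei, and VIP, NPY, GAL, GRP and CRH were at or near 0 in the neurons.

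The nuclei annotated as Unknown held 2 of the precursors at higher levels than any other class in every sample. NMU was at 134, 227, 156 and 113 CPM in the Unknown class, and a single Unknown nucleus held up to 24 NMU UMIs, against at most 8 in a neuron. TRH, the thyrotropin-releasing hormone precursor, was at 33.8, 23.4, 9.31 and 2.31 CPM there, although the last value rested on 3 UMIs. The Unknown class had 176, 60, 211 and 121 nuclei, and its summed level of the 14 neuronal markers was 752 to 1130 CPM. NMU was thus highest outside the neurons in every sample. CALCB was at 8.34 and 5.70 CPM in Progenitor 1 on day 42 and at 1.51 and 0.985 CPM on day 38. The day 38 values rested on 6 and 3 nuclei with at most 1 UMI each. The share of all genes that did not overlap between the days was not counted in that class.

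Most neurons held no peptide precursor UMI. At 2000 UMIs per neuron, 12.5%, 12.7%, 11.1% and 14.0% of neurons held a UMI of any of the 24 precursors, and 0.786%, 0.642%, 0.543% and 1.33% held UMIs of at least 2 of them. Without thinning the first shares were 36.7%, 37.2%, 32.2% and 38.01%. TAC1 was detected in 0.655%, 1.60%, 1.88% and 3.49% of thinned neurons. In the thinned mesenchymal nuclei, which are not neuronal, TAC1 was detected in 0%, 2.22%, 0% and 2.38%, so the day 38 control share in neurons was not above it. The median depth before thinning was 7210 to 8102 UMIs in neurons and 7227 to 8401 in mesenchymal nuclei. On day 38, 10 control neurons held 3 or more TAC1 UMIs with a maximum of 44, against 1 mesenchymal nucleus with a maximum of 3. In PP121 replicate 2 the counts were 26 neurons and 4 mesenchymal nuclei. The 10 neurons with the most TAC1 held 58.0%, 53.0%, 32.6% and 48.2% of its neuronal UMIs, and without the UMIs of those 10 the TAC1 level was 1.79, 6.31, 9.33 and 18.05 CPM, in the same order of samples.

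PAM was detected more often in neurons with a TAC1 UMI than in those without. At 2000 UMIs, PAM was detected in 7 of 15, 14 of 20, 25 of 38 and 26 of 34 TAC1-positive neurons, or 46.7%, 70.0%, 65.8% and 76.5%, against 29.7%, 41.2%, 44.3% and 49.3% of TAC1-negative neurons. Without thinning, ADCYAP1 was detected in 18.6%, 10.4%, 14.8% and 17.2% of TAC1-positive and in 1.51%, 3.04%, 2.15% and 3.42% of TAC1-negative neurons. Both of these shares were higher among TAC1-positive neurons in every sample. In the second case the neurons differ in depth. At 2000 UMIs the neurons with both peptides were only 2, 0, 1 and 3, and in control replicate 2 ADCYAP1 was in 0% of TAC1-positive and 1.47% of TAC1-negative neurons, as at 4000 UMIs (0% against 2.00%).

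The first comparison asked how neurons of the PP121 cultures differed from control neurons. TAC1 and PAM were higher in both PP121 samples than in both controls, and SCG2, SCG3, SCG5 and CARTPT were lower, with the values given above. In all, 8 of 29 members did not overlap between the treatments (TAC1, NMB and PAM higher; CARTPT, TRH, SCG2, SCG3 and SCG5 lower), against 43.4% of 25682 genes. Within each day TAC1 was 3.24-fold higher with PP121 on day 42 and 2.59-fold higher on day 38. Of the 34 members, 25 passed the filter on low counts. In edgeR's quasi-likelihood test of the sums with Benjamini-Hochberg adjustment over all genes, 0 of the 25 passed an adjusted p of 0.05, as did 0 of all 21243 genes (0% of genes), and 4 members and 2549 genes had an unadjusted p under 0.05. DESeq2 called 462 genes and 0 members. In the edgeR fit the log2 difference was 1.52 (SE 0.61, adjusted p = 0.406) for TAC1 and 0.58 (SE 0.28, adjusted p = 0.446) for PAM.

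With the differentiation replicate kept as a block, so that each PP121 sample was set against the control with its number (1 residual degree of freedom, with the spread shared across genes), 5 of the 25 members were called, against 14.8% of all genes. TAC1 rose by 1.56 on the log2 scale (SE 0.17, adjusted p = 2.08e-07) and PAM by 0.63 (SE 0.097, adjusted p = 4.35e-05). SCG5 fell by 0.60 (SE 0.13, adjusted p = 0.00234), SCG2 fell by 0.54 (SE 0.17, adjusted p = 0.0335) and CARTPT fell by 1.90 (SE 0.46, adjusted p = 0.00514). The share of members called was near that of all genes, so no pattern of the set was read from these 5. The median log2 difference over the 25 members was -0.22 with 17 of 25 negative, beside -0.01 over all genes. The CARTPT difference rested on control replicate 1, where 56 of its 72 UMIs came from the 99 neurons of a single deposited subtype, and without that sample CARTPT was not tested. Leaving out doublet candidates moved CARTPT to -3.01 with the block (adjusted p = 0.0014). The TAC1 value also depended on single samples: without the block it was 0.86 without control replicate 1, 2.58 without control replicate 2, 2.09 (adjusted p = 0.000174) without PP121 replicate 1 and 0.69 without PP121 replicate 2, where the lone sample of an arm is assumed to vary like the others. Without PP121 replicate 1, SCG5 (-0.73, adjusted p = 0.0321) and VGF (-1.56, adjusted p = 0.0225) were called too.

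**Figure D2:**
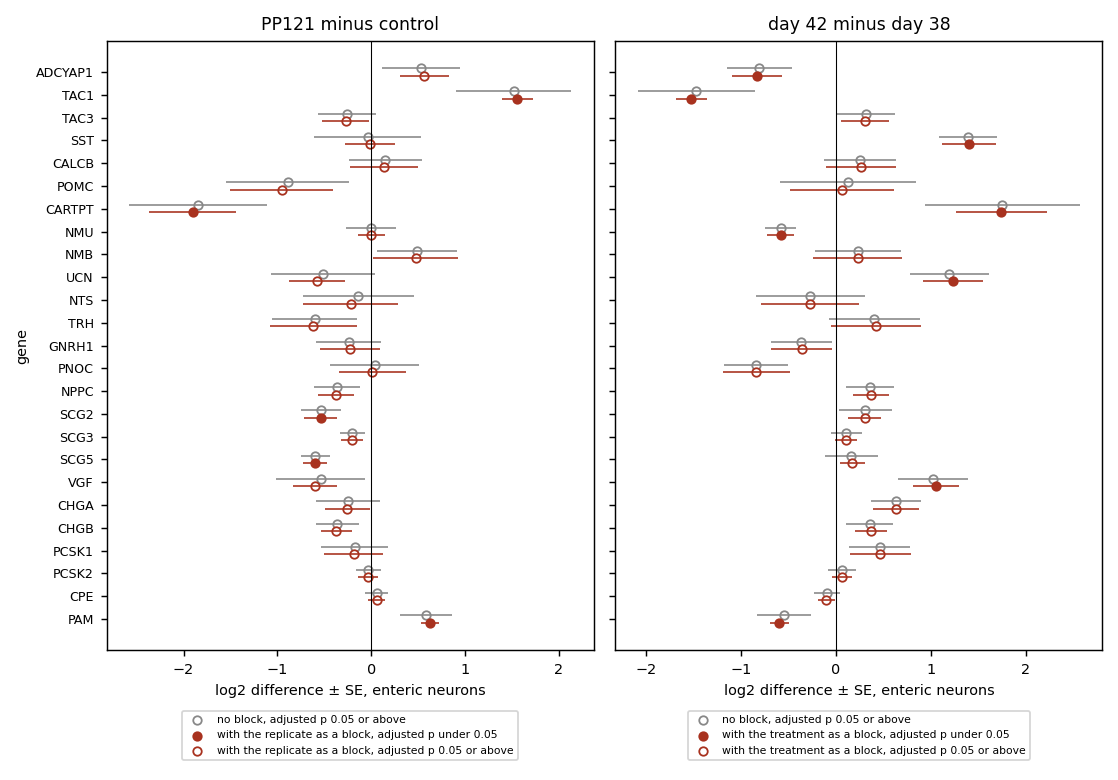
Log2 difference (points) with its SE (bars) for the 25 members tested in enteric neurons, PP121 minus control on the left and day 42 minus day 38 on the right, in grey without a block and in red with the other factor as a block; filled points had an adjusted p under 0.05. With the block TAC1 and PAM were higher with PP121 and lower on day 42, and CARTPT was lower with PP121 and higher on day 42.

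The share of neurons with a UMI was compared after each nucleus was thinned to 2000 UMIs. PAM was detected in 29.9%, 41.7%, 44.7% and 50.2% of thinned neurons. SCG5 was detected in 5.85%, 5.37%, 3.90% and 3.18%, and SCG3 in 9.69%, 9.78%, 7.71% and 7.91%. In the mesenchymal nuclei PAM was detected in 27.5%, 31.6%, 42.4% and 40.2%, higher in both PP121 samples, as in neurons, while SCG3 and SCG5 were detected in 0% to 3.03%. Of the 29 members with at least 10 UMIs, 12 did not overlap, against 39.0% of 25682 genes, a share near the background. There were 5 with shares higher in both PP121 samples than in both controls (TAC1, PAM and the rare PENK, CCK and TRH), although TRH rested on 1 to 3 nuclei a sample and its CPM was lower with PP121, so no order was read from its share. In 7 members the shares were lower (SCG3, SCG5, VGF, CHGA, CHGB, CARTPT and CALCA), and the exact two-sided permutation test gave p = 0.333 for each, the smallest that 2 against 2 samples allow. At 4000 UMIs 10 of the 29 did not overlap, against 41.1% of genes. TAC1, CALCB, PENK, NMB and PAM were higher, and GNRH1, PNOC, NPPC, SCG5 and CPE lower. Of the 12 members named, TAC1, PENK, PAM and SCG5 alone were still apart. Without thinning, all neurons of a sample held 8, 3, 5 and 4 PENK UMIs. For CCK these were 6, 3, 1 and 5 and for CALCA 4, 3, 4 and 0. No order was read from the shares of PENK, CCK and CALCA either. At 2000 UMIs the CPE, PCSK2 and SCG2 shares overlapped between the treatments, with CPE at 24.5% to 26.8% and PCSK2 at 10.5% to 12.0%, while at 4000 UMIs CPE was at 42.5%, 43.5%, 41.9% and 38.7%, lower in both PP121 samples. Mesenchymal marker levels in the neurons and the share of neurons with the catecholaminergic identity (18.2%, 37.6%, 35.0% and 43.8%) were also lowest in control replicate 1 and highest in PP121 replicate 2, as TAC1 and PAM were, and their part in these differences was not tested.

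In the progenitors, Progenitor 1 and 2 summed, TAC1 was at 1.32, 2.02, 5.95 and 4.41 CPM, with both PP121 samples above both controls. Of 22 members tested, 0 were called by edgeR (log2 difference of TAC1 1.64, SE 0.40, adjusted p = 0.612; 1 member and 962 genes at an unadjusted p under 0.05; DESeq2 called 107 genes and 0 members). With the replicate block TAC1 alone was called (1.66, SE 0.38, adjusted p = 0.0109), against 1.72% of genes. NMU in the progenitors was at 15.7, 18.7, 21.3 and 23.7 CPM and NPPC at 11.4, 11.7, 18.3 and 13.0 CPM. The difference between neurons and progenitors in the PP121 effect was tested as an interaction with the sample as a block, and 0 of 25 members were called by edgeR (3 members and 2123 genes at an unadjusted p under 0.05; DESeq2 called 195 genes and 0 members). NPPC had the smallest unadjusted p, 0.00882, with a log2 difference of effects of -0.81 (adjusted p = 0.343). For TAC1 the difference of effects was -0.20 (SE 0.57), so the difference in neurons was not shown to be unlike that in progenitors.

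The deposited NO identity (nitrergic neurons) was held by 449, 230, 358 and 91 neurons. Enteric neurons with a NOS1 UMI numbered 52, 30, 42 and 20, so most neurons with the identity held none. In the neurons with the identity, 14 members were tested and 0 were called by edgeR without the block (3 members and 2131 genes at an unadjusted p under 0.05, and 227 genes and 0 members called by DESeq2). With the block 2 were called, against 10.5% of genes. SCG2 in NO neurons was at 42.2, 29.4, 16.5 and 6.96 CPM from 157, 58, 51 and 6 UMIs and fell by 1.42 on the log2 scale (SE 0.29, adjusted p = 4.56e-05). PAM there was at 370, 449, 496 and 614 CPM and rose by 0.56 (SE 0.12, adjusted p = 0.00024). In the other neurons SCG2 was at 11.7, 9.31, 9.90 and 10.0 CPM. The treatments overlapped there. The difference between NO and other neurons in the SCG2 effect was not tested. SCG5, at 54.1, 51.8, 36.6 and 27.9 CPM in NO neurons, had a log2 difference of -0.55 (SE 0.21, adjusted p = 0.303) without the block.

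The second comparison set the replicates against each other, which are also day 42 against day 38. Of 29 members, 11 did not overlap between the days (SST, UCN, NPPC, VGF, CHGA, CHGB and PCSK1 higher on day 42; ADCYAP1, NMU, GNRH1 and PNOC lower), against 38.6% of genes. Without the treatment in the model 0 of 25 members and 0 of 21243 genes were called by edgeR (7 members and 1574 genes at an unadjusted p under 0.05; DESeq2 called 227 genes and 1 member, SST). With the treatment as a block 8 members were called, against 9.49% of genes. Higher on day 42 were CARTPT by 1.74 on the log2 scale (SE 0.48, adjusted p = 0.0184), SST by 1.40 (SE 0.28, adjusted p = 0.00123), UCN by 1.23 (SE 0.31, adjusted p = 0.0102) and VGF by 1.06 (SE 0.24, adjusted p = 0.00406). Lower on day 42 were TAC1 (-1.52, SE 0.17, adjusted p = 2.46e-07), ADCYAP1 (-0.83, SE 0.26, adjusted p = 0.0413), PAM (-0.60, SE 0.097, adjusted p = 9.65e-05) and NMU (-0.58, SE 0.14, adjusted p = 0.00663). Both comparisons use the same 4 samples. CARTPT stood out in control replicate 1 only. Mesenchymal marker levels in the neurons were higher on day 38, as given above, and their part in the day differences was not tested.

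SST was unevenly spread over the deposited subtypes. In the controls, subtype EN 7 held 52 of the 133 SST UMIs of replicate 1 (23.8 CPM in 253 neurons) and had 9 neurons in replicate 2, with no SST UMI. In the PP121 samples, subtype EN G held 57 of 98 SST UMIs of replicate 1 (70.4 CPM in 99 neurons) and had 1 neuron in replicate 2. Outside EN 7, SST was at 4.83 and 2.00 CPM in the controls, and outside EN G at 2.56 and 2.74 CPM in the PP121 samples, so the day 42 sample was still higher in the controls and not with PP121. The part of subtype numbers in the day difference was not tested. By the paper's account, numbered subtypes came from the controls alone and lettered ones from control and PP121 neurons clustered together. EN 7 and EN G thus come from different clusterings and need not be the same neurons.

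Promoter sequences were read because several of the genes that were higher on day 42 are textbook targets of cAMP signalling. RefSeq promoter windows of GRCh38.p14, from 250 bases before to 50 bases after a transcript start, were found for 26 of the 34 members (35 windows), and not for CALCB, PNOC, SCG2, CHGB, PENK, CRH, GNRH1 and GAL. The palindrome TGACGTCA, the cAMP response element, was in 5 of the 35 windows and in 1.85% of all 35116 windows. Its shorter form TGACG, searched on both strands and contained in the palindrome, was in 18 of 35 member windows and in 24.6% of all windows. The 5 windows belonged to CARTPT, CHGA, PCSK1, SST and VGF, with the element starting 143, 54, 77, 47 and 79 bases before the start. The 150 bases before the start are printed 5′ to 3′ on the strand of the gene, with the element in capitals, for CARTPT (chr5:71719125-71719274, plus strand), CHGA (chr14:92923000-92923149, plus strand), PCSK1 (chr5:96433249-96433398, minus strand), SST (chr3:187670395-187670544, minus strand) and VGF (chr7:101165570-101165719, minus strand).
CARTPT: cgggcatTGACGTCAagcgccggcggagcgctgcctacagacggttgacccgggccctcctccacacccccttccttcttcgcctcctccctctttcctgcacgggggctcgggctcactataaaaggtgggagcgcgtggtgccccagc
CHGA: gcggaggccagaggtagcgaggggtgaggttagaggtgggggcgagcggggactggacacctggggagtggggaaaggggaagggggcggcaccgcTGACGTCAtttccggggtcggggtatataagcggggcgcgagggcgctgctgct
PCSK1: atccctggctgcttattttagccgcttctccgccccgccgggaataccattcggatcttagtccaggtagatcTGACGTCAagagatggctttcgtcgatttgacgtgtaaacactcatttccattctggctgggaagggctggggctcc
SST: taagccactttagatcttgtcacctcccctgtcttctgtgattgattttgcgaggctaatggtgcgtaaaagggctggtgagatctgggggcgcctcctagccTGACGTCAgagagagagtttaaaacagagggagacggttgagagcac
VGF: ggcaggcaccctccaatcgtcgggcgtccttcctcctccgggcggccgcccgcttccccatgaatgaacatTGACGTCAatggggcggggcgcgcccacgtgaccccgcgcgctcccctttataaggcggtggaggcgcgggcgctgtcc

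The element was looked for after the day differences were seen, so the levels of these 5 genes by day are a description. Each was higher on day 42 in both treatments, CARTPT in the PP121 samples from 13 against 4 UMIs. Among the members with a window used and no full element 6 of 18 were higher in both treatments (UCN, NPPC, TRH, SCG5, SCG3 and NMB). Among all members with a window used it was 11 of 23 (47.8%), and members on chromosome 8 are not in these counts. Among all genes with the full element it was 228 of 461 (49.5%) and among all genes with a window 41.8% of 14408. Only SST, VGF and CARTPT of the 5 were called between the days. CHGA (log2 difference 0.63, SE 0.24, adjusted p = 0.0984) and PCSK1 (0.46, SE 0.32, adjusted p = 0.422) were not called between the days. A match is a string in the window and says nothing on whether a factor bound there. UCN, which was called higher on day 42, and TAC1, which was lower, both had no full element in their windows.

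**Figure D3:**
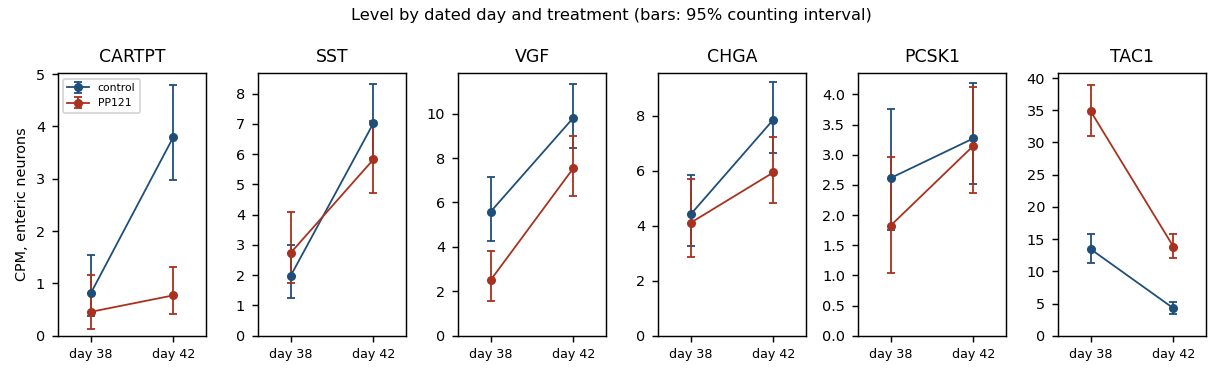
Level of the 5 genes with the element and of TAC1 in enteric neurons, in CPM from 0, by dated day, with 1 point per sample, lines joining the samples of a treatment and bars for the 95% counting interval. The 5 genes were higher on day 42 in both treatments and TAC1 was lower, and between the days the intervals overlapped for PCSK1 in both treatments and for CARTPT and CHGA in PP121.

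The third set of comparisons asked which members went with the transmitter identities that the authors had assigned to neurons. An identity rested on values imputed from all genes of the same nuclei, so the p-values below are too small to an unknown degree, and a neuron could hold several: 56.0% to 66.5% of neurons held at least 2. Neurons without a subtype (16, 16, 143 and 61) carried no identity and were left out. Each test compared neurons with and without the identity within samples (sample as a block, edgeR quasi-likelihood, Benjamini-Hochberg over all genes).

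Catecholaminergic neurons had the most members called, 7 of 20 tested and all higher, against 4.8% of genes. TAC1 was at 12.3, 24.1, 31.2 and 70.6 CPM with the identity and 2.21, 7.57, 5.13 and 10.5 without it (log2 difference 2.37, SE 0.17, adjusted p = 1.96e-05). ADCYAP1 was at 6.17, 9.71, 9.69 and 8.89 CPM with and 1.69, 2.18, 1.68 and 5.15 without (1.82, SE 0.28, adjusted p = 0.00295). PAM was at 370, 648, 700 and 795 CPM with and 234, 326, 335 and 393 without (0.93, SE 0.077, adjusted p = 4.93e-05). Both peptides and the enzyme were higher with the identity in each of the 4 samples. SCG2 was at 27.6, 20.9, 16.5 and 16.4 CPM with and 15.5, 8.30, 8.38 and 4.48 without (1.15, SE 0.17, adjusted p = 0.00202). CPE (0.51, adjusted p = 0.0147), SCG5 (0.56, adjusted p = 0.0173) and NPPC (0.62, adjusted p = 0.0375) were also called. CPE and SCG5 were lost without control replicate 2 or either PP121 replicate, and NPPC when any single sample was left out. With the identity defined by a TH UMI instead, 1 member was called, PAM.

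TAC1 was higher in the PP121 sample on both sides of this split. Within catecholaminergic neurons it was 2.53-fold higher on day 42 and 2.92-fold higher on day 38 in the PP121 sample, and in the other neurons 2.32-fold and 1.39-fold higher. The catecholaminergic neurons were 18.2% of neurons in control replicate 1 and 35.0% to 43.8% in the other samples. These folds come from single samples and carry no test.

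GABAergic neurons showed the opposite pattern, with 3 of 22 members called and all lower, against 7.85% of genes. TAC1 was at 0.869, 1.92, 5.04 and 3.58 CPM with the identity and 7.09, 18.4, 22.6 and 44.0 without it (-2.66, SE 0.22, adjusted p = 4.92e-05). ADCYAP1 had 3, 0, 4 and 0 UMIs with the identity and 44, 54, 63 and 54 without it (-4.11, SE 0.42, adjusted p = 0.00017). PAM was lower too (-0.52, SE 0.059, adjusted p = 0.000363), at 214, 316, 357 and 403 CPM against 302, 496, 560 and 605 CPM. The direction was the same in all 4 samples for each of the 3 genes. Cholinergic neurons, of which 71.0% to 92.3% were also GABAergic, had 5 of 22 members called, against 11.5% of genes. TAC1 (-1.90, SE 0.22, adjusted p = 7.96e-05), SCG2 (-1.78, SE 0.24, adjusted p = 0.00025), ADCYAP1 (-2.89, SE 0.58, adjusted p = 0.00507) and PAM (-0.51, SE 0.074, adjusted p = 0.00044) were lower and SCG3 (0.47, SE 0.097, adjusted p = 0.00654) higher. SCG2 was at 8.20, 4.74, 2.77 and 0 CPM in cholinergic and 22.6, 15.2, 15.7 and 10.8 in the other neurons. Without PP121 replicate 1 the calls of ADCYAP1 (-2.61, adjusted p = 0.0647) and SCG3 (0.39, adjusted p = 0.079) were lost.

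**Figure D4:**
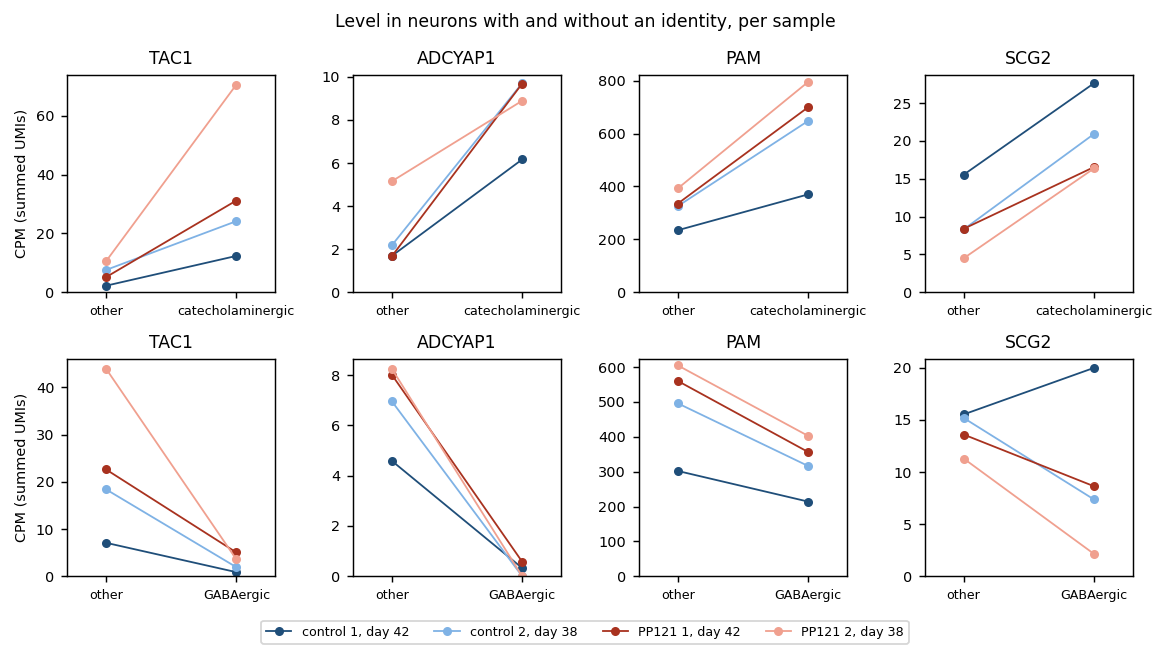
Level of TAC1, ADCYAP1, PAM and SCG2 in CPM in the other neurons and in catecholaminergic (top) or GABAergic neurons (bottom), with 1 line per sample. All 4 genes were higher with the catecholaminergic identity in every sample, and TAC1, ADCYAP1 and PAM were lower with the GABAergic identity in every sample, while SCG2 was higher there in control replicate 1.

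In NO neurons 5 of 21 members were called, against 11.7% of genes. CARTPT was at 16.4, 3.05, 1.29 and 1.16 CPM with the identity, from 61, 6, 4 and 1 UMIs, and at 0.729, 0.336, 0.0853 and 0.423 CPM without it, from 11, 3, 1 and 3 UMIs (3.83, SE 0.51, adjusted p = 0.000249). It was higher with the identity in each sample, although the counts outside control replicate 1 were small, and without either control sample it did not pass the filter on low counts and was not tested. SCG5 was at 54.1, 51.8, 36.6 and 27.9 CPM with and 29.6, 25.5, 20.2 and 17.9 without (0.92, SE 0.11, adjusted p = 0.000138). SCG2 was also higher (1.30, SE 0.24, adjusted p = 0.00309), though not in PP121 replicate 2, at 6.96 against 10.0 CPM, and the call was lost without control replicate 1 (0.95, adjusted p = 0.0731). CPE (0.27, adjusted p = 0.0472) and TAC3 (-1.24, adjusted p = 0.0336) were lost without control replicate 1, control replicate 2 or PP121 replicate 1, and CPE also without PP121 replicate 2. With the identity defined by a NOS1 UMI instead, 2 of 22 members were called, both higher, against 196 of 18943 genes. VIP, the peptide known to accompany nitric oxide, was not detected, as given above.

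Glutamatergic neurons had 3 of 20 members called, against 14.9% of genes. TAC1 was at 6.84, 17.1, 22.7 and 45.3 CPM with the identity and 3.04, 10.2, 8.86 and 15.8 without (1.19, SE 0.15, adjusted p = 0.00024). TAC1 was higher in all 4 samples here as well. Of the catecholaminergic neurons 39.3%, 43.1%, 40.1% and 61.8% were also glutamatergic, against 21.8%, 44.9%, 34.1% and 69.5% of the other neurons. The share was thus higher than in the others on day 42 and lower on day 38. TAC3 (1.06, adjusted p = 0.0195) was higher and SCG5 (-0.41, adjusted p = 0.0187) lower, but both turned around when the identity was defined by an SLC17A6 UMI, to -1.46 (adjusted p = 0.00837) and 0.58 (adjusted p = 0.00642). TAC3 was lost without control replicate 1 or PP121 replicate 1 and SCG5 without either control. Serotonergic neurons had 2 of 20 called and both lower, NPPC (-0.68, adjusted p = 0.0402) and NMU (-0.58, adjusted p = 0.0244), against 10.7% of genes. NMU was at 11.3, 18.9, 11.0 and 19.9 CPM with the identity and 19.1, 25.5, 18.8 and 24.5 without, lower in each sample. Neither NPPC nor NMU was called without control replicate 1, control replicate 2 or PP121 replicate 1.

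**Figure D5:**
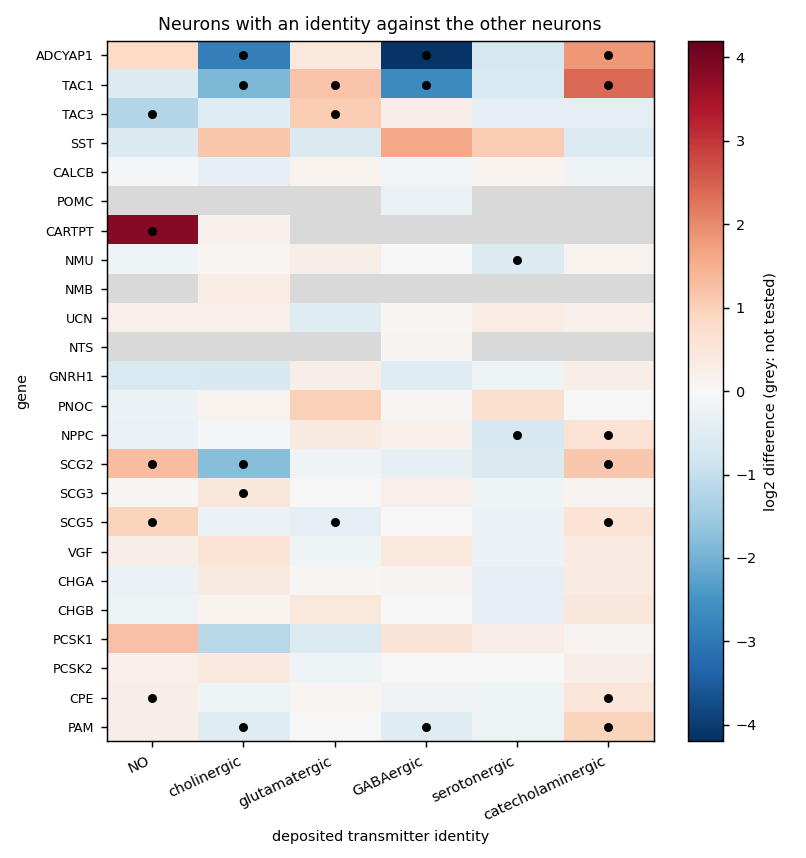
Heat map of the log2 difference of each tested member between neurons with and without each of the 6 identities, red where higher and blue where lower with the identity, grey where not tested, with dots at an adjusted p under 0.05. TAC1 ran from -2.66 in GABAergic to 2.37 in catecholaminergic neurons, and PAM from -0.52 to 0.93 in the same identities.

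Among the deposited subtypes, PAM was highest in 1 subtype of each treatment. PAM was at 1019 and 1201 CPM in subtype EN 8 of the controls (99 and 118 neurons) and at 1059 and 1055 CPM in EN H of the PP121 samples (302 and 233 neurons), and at no more than 662 CPM in any other subtype. The PAM levels of EN 8 and EN H were close, but both come from different clusterings and need not be the same neurons. The part of subtype numbers in the PAM difference was not tested. TAC1 was at 25.6 and 79.8 CPM in EN 8 and at 55.4 and 131 CPM in EN H. In control replicate 1 EN 4 was as high, at 26.0 CPM from 38 UMIs against 19 in EN 8. ADCYAP1 was at 32.3 and 15.5 CPM in EN 8 and at 18.7 and 14.5 CPM in EN H. CARTPT was at 75.4 CPM in EN 8 of control replicate 1 but at 5.18, 1.31 and 0 CPM in EN 8 or EN H of the other samples. Subtypes are clusters of the same nuclei, so no test was made.

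Other genes of peptide signalling and of the granule were counted from lists. In neurons with PP121 and the replicate block, where 14.8% of all genes were called, edgeR called 1 higher and 3 lower of 29 tested peptide receptors, 1 and 1 of 18 other precursors, 6 and 5 of 49 other granule genes and 3 and 0 of 17 immediate early genes, and without the block 0 in each list. NPR3, the clearance receptor for natriuretic peptides such as that of NPPC, was at 8.65, 11.6, 3.86 and 3.31 CPM (-1.40, adjusted p = 0.000121). SORT1, a sorting receptor that binds neurotensin, was at 107, 116, 83.3 and 77.1 CPM (-0.43, adjusted p = 0.00386). PCSK1N, the precursor of a PCSK1 inhibitor, was at 70.5, 44.4, 35.6 and 28.8 CPM. RAB3C, a small GTPase of secretory vesicles, was at 310, 434, 542 and 569 CPM (0.64, adjusted p = 2.6e-05) and CADPS, which primes dense-core granules for release, at 245, 222, 326 and 298 CPM (0.46, adjusted p = 0.000602). In NO neurons against the others, where 11.7% of all genes were called, 2 higher and 1 lower of 23 receptors, 1 and 1 of 13 precursors, 8 and 2 of 48 granule genes and 0 and 2 of 17 immediate early genes were called. RAB27B, a granule exocytosis GTPase (1.77, SE 0.18, adjusted p = 2.41e-05), CADPS2, a relative of CADPS (2.37, SE 0.34, adjusted p = 0.000403), and TACR1, the substance P receptor (0.90, SE 0.12, adjusted p = 0.000266), were among those higher in NO neurons.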

How the data were processed

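Single-nucleus RNA-seq of 4 H9 ganglioid samples was analysed. The authors deposited raw UMI counts per gene and nucleus, with tables of cell class, subtype, transmitter identity and time point. Their methods name kallisto and bustools, and the submitters' processing notes name Cell Ranger, Seurat 4.0.4 and GRCh38; whether intronic reads or strand were used is not given in the sources used here, so a gene and an overlapping one on the other strand cannot be told apart. Filtered nuclei were dropped, and samples were taken from the labels, since a sample column of the control annotation names them differently. No doublet treatment before deposit is assumed; the planned Scrublet call marked 1 nucleus in all, so the top 8% of scores stood in, chosen after seeing the data.

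Counts were summed per sample and class and tested with edgeR 4.0.16 (TMM, filterByExpr, glmQLFTest, two-sided, Benjamini-Hochberg over all genes tested) in R 4.3.3. The fit without a block was designed as the main one; fits with the replicate as a block, DESeq2 1.42.0, other filters, other identity definitions and leaving out each sample were alternatives. Same-numbered samples share the differentiation replicate number of the labels and the dated day, and their deviations from the group means correlated at 0.421 in neurons, 0.284 in progenitors and 0.208 in NO neurons. Shares of neurons were computed after thinning to 2000 UMIs and compared by an exact permutation test. UMI sums carry counting error besides the spread between samples. Per-sample values are given for members with an adjusted p under 0.05 or at least 10 CPM in the neurons of all samples, other members by ranges and counts, and of the lists at most 5 genes each. The members and lists were chosen with earlier results of these data known. Scripts were tested on simulated data.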

Additional observations from a re-analysis of the deposited data

Results flagged for a closer look

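NMU, the neuromedin U precursor, had differences between PP121 and control of opposite sign in NO neurons and in the other neurons, and the difference in NO neurons was not called by edgeR (adjusted p = 0.614). In NO neurons its log2 difference between the PP121 and control sample was 0.39 on day 42 and 0.47 on day 38. In the other neurons it was -0.23 on day 42 and -0.14 on day 38. The difference between both sets of neurons was not tested, and NMU had 23 to 48 UMIs per sample in NO neurons.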

How the results depend on the processing

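The number of members called with PP121 depended on whether the samples were paired by differentiation. With the replicate block 5 members and 3152 genes were called in neurons. The block gave 1 member and 349 genes in progenitors, and NO neurons had 2 members and 1594 genes, against 0 in each of the 3 comparisons without it. In neurons of the joint clusters the block gave 5 members and 2416 genes, and without doublet candidates 5 and 2848. With the treatment as a block 8 members and 2015 genes were called between the days. The unblocked genes called rose to 462 (neurons), 107 (progenitors), 227 (NO neurons), 227 (days) and 195 (interaction) with DESeq2, and to 69, 270, 752 and 158 for the first 4 without a filter on low counts, with 1 member in progenitors, 3 in NO neurons and 1 between the days; DESeq2 called 1 member between the days. Neurons with a NOS1 UMI gave 3 genes. The cause of these differences was not tested.

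Leaving out 1 sample gave 0 to 3 members and 0 to 1402 genes in neurons, 0 to 168 genes in progenitors, 0 to 2 members and 66 to 356 genes in NO neurons, and 2 to 271 genes between the days. For the identities it gave 1 to 6 members and 1243 to 2256 genes (NO), 3 to 6 and 1062 to 2413 (cholinergic), 1 to 3 and 1196 to 2464 (glutamatergic), 3 to 5 and 733 to 1595 (GABAergic), 0 to 2 and 140 to 2586 (serotonergic) and 4 to 8 and 226 to 1165 (catecholaminergic). With the identity defined by a UMI of its gene, members called were 2 (NO), 9 (glutamatergic), 5 (GABAergic), 1 (serotonergic) and 1 (catecholaminergic), and genes were 196 (NO), 484 (cholinergic), 1478 (glutamatergic), 190 (serotonergic) and 93 (catecholaminergic). In glutamatergic neurons that definition reversed SCG5 to 0.58 and TAC3 to -1.46. Without a filter on low counts members called were 9 (cholinergic), 6 (glutamatergic), 6 (GABAergic) and 6 (serotonergic), and genes were 2395 (GABAergic), 3213 (serotonergic) and 1669 (catecholaminergic). DESeq2 called 1 member in serotonergic neurons. Without thinning 3 members had shares higher in both PP121 samples and 9 lower, against 44.1% of genes that did not overlap.

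Differences of single members under the alternatives were tallied. Of these, 241 kept their direction and side of the threshold, 46 lost a call, 34 gained one and 2 reversed. The 241 include log2 differences that were called in neither fit. They also include differences in detection share of TAC1, PAM, SCG5, SCG3 and CHGB, which were judged by direction alone. CARTPT in NO neurons (not tested without either control sample), TAC1, ADCYAP1 and PAM in GABAergic neurons, TAC1, SCG2 and PAM in cholinergic neurons, TAC1 in glutamatergic neurons and PAM in catecholaminergic neurons kept their calls under every alternative run for them. With 2 samples a group, precursors at a few UMIs per sample were beyond the depth.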
